A study of Homo sapiens with 6 samples.

Results

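The RAB GTPases are the genes whose symbol is RAB followed by a number and at most 1 letter. Of the 20289 genes in the ribosome footprint table, 63 had such a symbol, and they carry 43 different numbers. The 6 libraries came from RKO, a human colorectal cancer cell line. The 3 shTRMT6 libraries came from RKO cells with a short hairpin RNA against TRMT6, and the 3 shControl libraries from RKO cells with a control hairpin. TRMT6 is the partner of the enzyme that methylates adenosine in the body of many tRNAs. Ribosome footprinting sequences the mRNA fragments that ribosomes shield from nuclease, and the values are FPKM, that is, footprints scaled by gene length and library size. The labels call the shTRMT6 cells TRMT6 knockdown and the shControl cells WT, and name no other treatment. They do not give the hairpin sequences, the number of hairpins or clones, or whether the libraries came from separate cultures. The p-values therefore measure the spread between these libraries, which may be technical.

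RAB proteins are small GTPases that give membrane compartments their identity. An exchange factor loads a RAB with GTP on its own membrane, the active RAB recruits effectors such as motors and tethers, and a TBC domain protein stimulates GTP hydrolysis. Most RABs are anchored by geranylgeranyl groups on cysteines near the end of the protein, and GDI carries the GDP-bound form through the cytosol. Many RABs with the same number and different letters are paralogs that share a compartment.

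TRMT6 itself had 20.7, 21.9 and 24.1 FPKM in the shTRMT6 libraries, against 57.6, 58.4 and 95.3 FPKM in the shControl libraries. Its log2 fold change was -1.58 (SE 0.27, limma adjusted p = 0.00301). Library FPKM sums were 1531873 to 1582826 in shTRMT6 and 1463344 to 1760307 in shControl, and 12632 to 12730 genes were above 0 in shTRMT6, against 11879 to 12037 in shControl. The low values put the libraries at an estimated 2574000 to 4090000 reads each. Of the 5 epithelial markers, KRT18 (103 to 121 FPKM in shTRMT6, 97.1 to 216 FPKM in shControl), KRT8 and EPCAM were tested and not called, CDH1 was at 0 throughout and KRT19 was above 0 in 1 shControl library. Of the 4 intestinal markers, CDX2 was tested and not called, while CDX1, VIL1 and LGALS4 were at 0 in every library. Of the 8 markers of other cell types, only CD68, a lysosomal membrane glycoprotein, was tested, with 575 to 754 FPKM in shTRMT6 and 559 to 740 FPKM in shControl.

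For 3 pairs of paralogs whose log2 fold changes lay far apart, part of the coding sequence is shown. The stretches run 5′ to 3′ over the 60 bases around the phosphate-binding loop, the segment that wraps the phosphates of the bound nucleotide and is encoded by bases 19 to 42 of each stretch. The sequences are from GENCODE 29 on GRCh38. Capitals mark the bases that differ between the members of a pair. RAB3A lies on chromosome 19 from 18196784 to 18204074 (minus strand) and RAB3B on chromosome 1 from 51907956 to 51990764 (minus strand). RAB5A lies on chromosome 3 from 19947079 to 19985175 and RAB5B on chromosome 12 from 55973913 to 55996683, both on the plus strand. RAB11A lies on chromosome 15 from 65726054 to 65891991 and RAB11B on chromosome 19 from 8389981 to 8404434, both on the plus strand. The RAB3 and RAB5 groups held the widest differences in log2 fold change between tested paralogs after the RAB2 pair, which was wider and whose sequence is not shown, and the RAB11 pair was added after its values were seen.
RAB3A: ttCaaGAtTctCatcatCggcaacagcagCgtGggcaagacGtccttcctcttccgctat
RAB3B: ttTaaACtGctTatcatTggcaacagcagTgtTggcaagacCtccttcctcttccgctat
RAB5A: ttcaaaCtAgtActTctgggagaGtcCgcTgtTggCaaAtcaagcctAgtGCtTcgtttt
RAB5B: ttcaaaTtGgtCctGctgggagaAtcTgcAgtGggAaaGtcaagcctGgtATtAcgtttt
RAB11A: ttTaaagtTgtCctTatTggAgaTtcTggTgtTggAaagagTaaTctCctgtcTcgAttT
RAB11B: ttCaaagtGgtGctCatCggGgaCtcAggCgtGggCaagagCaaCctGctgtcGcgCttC

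The 2 RAB11 stretches differed at 17 bases, all 17 of them at the third base of a codon. The RAB5 stretches differed at 14 bases, of which 12 were at the third base, and the RAB3 stretches at 9 bases, of which 8 were. Over the whole coding sequence, RAB11A and RAB11B were 73.0% identical, with 146 of 175 differences at the third base. RAB5A and RAB5B were 72.6% identical, with 125 of 177 differences at the third base, and RAB3A and RAB3B were 76.9% identical, with 99 of 152. Within each of these 3 pairs, 0 windows of 28 bases, about the length of a footprint, occurred in both members.

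The ends of the RAB11 coding sequences are shown because the cysteine codons that receive the membrane anchor lie there. Capitals mark the cysteine codons in the last 60 coding bases.
RAB11A end: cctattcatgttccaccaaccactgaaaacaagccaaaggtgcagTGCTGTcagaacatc
RAB11B end: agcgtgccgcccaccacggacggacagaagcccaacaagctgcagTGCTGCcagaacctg

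The ribosome footprints on RAB genes had a lower sum in the knockdown. Summed over the 63 genes, they came to 4073, 3944 and 3940 FPKM in the shTRMT6 libraries, against 5622, 5370 and 5536 FPKM in the shControl libraries. Each shTRMT6 sum lay below each shControl sum. The means were 3986 ± 75.8 FPKM in shTRMT6 and 5509 ± 128 FPKM in shControl (SD, n = 3 each), a sum 1.38-fold lower in shTRMT6, and the two-sided exact permutation test gave p = 0.1, the smallest that 3 against 3 allows. As a share of the library's FPKM the family made up 0.256% ± 0.0057 in shTRMT6 and 0.336% ± 0.037 in shControl (SD, n = 3 each). Because FPKM is relative to the library, scaling each library to the median of the tested genes gave means of 3356 FPKM in shTRMT6 and 6559 FPKM in shControl, 1.96-fold lower in shTRMT6. A sum is weighted towards abundant genes and does not show that the members fell alike. RAB11A had means of 251 FPKM in shTRMT6 and 569 FPKM in shControl, and RAB7A had 194 and 495 FPKM. Among the 43 tested genes, 16 had a log2 fold change above 0. In these bulk libraries, fewer mRNA molecules and fewer ribosomes on each cannot be told apart.

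Of the 63 genes, 13 were at 0 in every library, namely RAB3C, RAB6B, RAB7B, RAB17, RAB25, RAB27B, RAB31, RAB32, RAB33A, RAB34, RAB37, RAB39A and RAB39B. Another 7 (RAB6C, RAB6D, RAB19, RAB40A, RAB41, RAB42 and RAB44) were above 0 in at least 1 library without reaching 1 FPKM in 3 libraries, and the remaining 43 were tested. With limma on log2(FPKM + 1) and a Benjamini-Hochberg adjusted p under 0.05 over 11566 genes, 11 RAB genes fell in shTRMT6, 7 rose and 25 were not called. The 11 that fell were 25.6% of the RAB genes tested, against 9.04% of all genes tested. The 7 that rose were 16.3%, against 26.5% of all genes tested. The median log2 fold change was -0.26 over the RAB genes and 0.39 over all genes tested, and the RAB values ran from -1.90 to 1.52, with 27 below 0 and 16 above. Every shTRMT6 library was below every shControl library for 17 RAB genes (39.5%, against 14.3% of all genes tested), and above for 12 (27.9%, against 37.0%).

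The split of calls depended on the scaling. Scaling each library to the median of the tested genes brought the median of all genes to -0.07. With this median scaling 20 RAB genes fell (46.5%) and 1, RAB2B, rose (2.33%). Of all genes tested, 19.7% fell and 13.2% rose (32.8% called in either direction). With quantile normalization 18 RAB genes fell (41.9%) and 3 rose (6.98%), against 14.7% and 13.9% of all genes tested. Of the 11 genes that fell without scaling, all 11 were also called lower with median scaling. That scaling moved the median of all genes down from 0.39, so lower calls could hardly be lost, and their staying is no support for them.

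The 43 tested RAB genes are short and, in these libraries, mostly well covered. Their coding length was 582 to 999 bases with a median of 645 bases, against a median of 1362 bases over all genes tested, and their mean level had a median of 53.7 FPKM, against 29.8 FPKM. For all 2288 tested genes with a coding length in the RAB range the median log2 fold change was 0.00077, with 19.1% called lower and 16.4% called higher. Of these, the 1114 genes at or above the median RAB level had a median of -0.27, with 30.1% called lower and 12.6% higher. The 22 RAB genes at or above that level had a median of -0.41, with 36.4% called lower and 9.09% higher, and the 21 below it a median of -0.10, with 14.3% lower and 23.8% higher. The RAB shares in each direction were thus nearer to those of genes of like coding length than to those of all genes. With the trends on level and coding length removed from the fold changes, 9 RAB genes fell (20.9%) and 10 rose (23.3%), against 13.6% and 13.4% of all genes. The calls of RAB1B (limma adjusted p = 0.0616), RAB5A (0.0577) and RAB14 (0.117) were lost there, with log2 fold changes of -0.44 for RAB1B, -1.001 for RAB5A and -0.71 for RAB14. RAB27A was gained as lower, and RAB8A, RAB11B and RAB22A as higher.

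**Figure D1:**
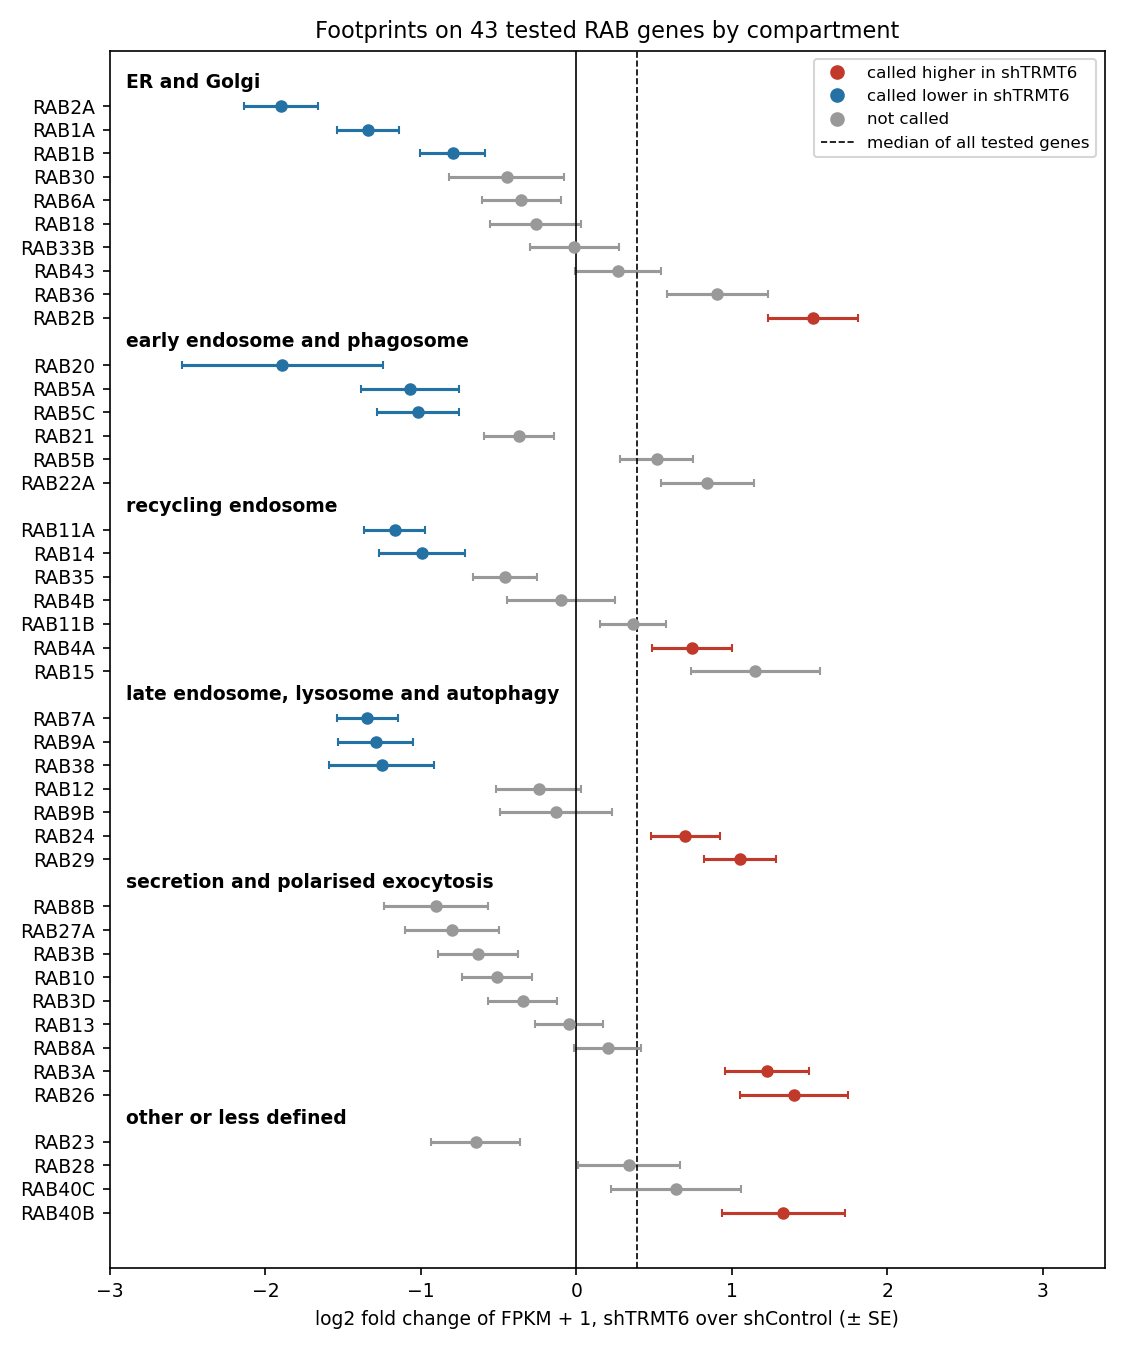
Log2 fold change of FPKM + 1 (shTRMT6 over shControl, x axis) for the 43 tested RAB genes, grouped by compartment and ordered by value, with bars for the limma standard error. Points are coloured by call; the dashed line is the median of all tested genes, 0.39, and each compartment from the ER to the lysosome holds values on both sides of 0.

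Each compartment holds few genes, and over all genes tested 9.04% fell and 26.5% rose. Among the 14 RABs of the ER and Golgi, 10 were tested, of which 3 fell (RAB2A, RAB1A and RAB1B) and 1 rose (RAB2B). Their summed level was 1111 ± 125 FPKM in shTRMT6 and 1799 ± 54.4 FPKM in shControl (SD, n = 3 each), without overlap (log2 ratio -0.70). The sums of the early endosome (-0.32), recycling (-0.47) and late endosome (-0.73) RABs were also lower in every shTRMT6 library. Those of secretion and of other function overlapped. All these sums are weighted towards abundant members. The late endosome sum had means of 431 FPKM in shTRMT6 and 715 FPKM in shControl. Within it RAB7A alone had 194 and 495 FPKM, while RAB24 and RAB29 rose. The recycling sum had means of 1015 and 1410 FPKM, and within it RAB11A had 251 and 569 FPKM, while RAB4A rose. Of all single genes tested, 14.3% were lower in every shTRMT6 library. A sum of several genes is another measure, and no rate for sums of other genes is given. RAB2A, which acts in Golgi to ER retrieval and in lysosome fusion, had 108, 76.0 and 82.8 FPKM in shTRMT6, against 267, 342 and 396 FPKM in shControl. Each shTRMT6 value was below each shControl value. The log2 fold change of RAB2A was -1.90 (SE 0.24, limma adjusted p = 0.00108), the lowest of the 43. Its paralog RAB2B, a Golgi RAB, went the other way with 17.6, 19.4 and 25.6 FPKM in shTRMT6, against 5.55, 7.52 and 6.58 FPKM in shControl. All 3 shTRMT6 values stood above the shControl values, and the log2 fold change was 1.52 (SE 0.29, limma adjusted p = 0.00462), the highest of the 43. RAB2B rested on an estimated 31.6 to 51.3 reads per library in shTRMT6 and 11.8 to 16.8 in shControl.

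RAB1A and RAB1B control traffic from the ER to the Golgi. RAB1A had 114, 99.9 and 110.4 FPKM in shTRMT6, against 265, 252 and 308 FPKM in shControl, a difference far wider than the spread within either group. The log2 fold change was -1.34 (SE 0.20, limma adjusted p = 0.00186). RAB1B had 239, 302 and 240.3 FPKM in shTRMT6, against 520.1, 436 and 399 FPKM in shControl. These values did not overlap either, with a smaller log2 fold change of -0.79 (SE 0.21, limma adjusted p = 0.0167). The RAB1B call was lost without shTRMT6 replicate 1 (limma adjusted p = 0.0811), shTRMT6 replicate 3 (0.0707) or shControl replicate 1 (0.0663), and 40.8% of its 28-base windows occur in other genes, mainly RAB1C.

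RAB18, which sits on the ER and lipid droplets, had the highest mean of all RAB genes, 416 FPKM. It had 430.2, 234 and 494 FPKM in shTRMT6, against 528, 438 and 372 FPKM in shControl. The groups overlapped, and the log2 fold change of -0.26 was not called (SE 0.29, limma adjusted p = 0.514). RAB6A, which returns Golgi membrane to the ER, and the Golgi RABs RAB30, RAB33B and RAB43 also overlapped between groups, with log2 fold changes from -0.45 to 0.27. RAB36 had a log2 fold change of 0.91 that missed the threshold (limma adjusted p = 0.0545).

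Of the 7 RABs of the early endosome and phagosome, 6 were tested, of which 3 fell (RAB5A, RAB5C and RAB20) and 0 rose. Over all genes tested, 9.04% fell and 26.5% rose. By limma, 1 of the 6 was higher at an unadjusted p under 0.05, RAB22A. The share of all genes at that unadjusted cutoff is not given here. RAB5 proteins drive the fusion of endocytic vesicles with early endosomes. RAB5A had 50.5, 96.7 and 68.0 FPKM in shTRMT6, against 143, 107 and 207 FPKM in shControl. RAB5C had 110.0, 103 and 65.5 FPKM in shTRMT6, against 186, 154 and 220.1 FPKM in shControl. Neither gene overlapped between groups, and the log2 fold changes were -1.07 for RAB5A (SE 0.32, limma adjusted p = 0.0257) and -1.02 for RAB5C (SE 0.26, limma adjusted p = 0.0153). RAB5B stood apart with 93.8, 94.9 and 69.0 FPKM in shTRMT6, against 56.3, 67.6 and 54.2 FPKM in shControl. All 3 of its shTRMT6 values were above the shControl values, but the log2 fold change of 0.52 was not called (SE 0.23, limma adjusted p = 0.110) and was 0.03 with median scaling.

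The RAB5A call was lost without shTRMT6 replicate 1 (limma adjusted p = 0.106), shTRMT6 replicate 3 (0.0765), shControl replicate 1 (0.0612) or shControl replicate 3 (0.0509). The RAB5C call was lost without shTRMT6 replicate 3 (0.0660), and 76.7% of the 28-base windows of RAB5C occur in other genes, mainly an overlapping gene, ENSG00000267261. That gene had 63.7, 51.4 and 73.7 FPKM in shTRMT6, against 60.4, 52.2 and 145 FPKM in shControl, and was not called. RAB20, which takes part in phagosome maturation, had 0, 6.21 and 2.18 FPKM in shTRMT6, against 15.4, 8.58 and 6.46 FPKM in shControl. The highest shTRMT6 value, 6.21 FPKM, lay just below the lowest shControl value, 6.46 FPKM, and the log2 fold change of -1.89 carried the largest error of the called genes (SE 0.65, limma adjusted p = 0.0458). The RAB20 call was lost in 5 of the 6 fits that leave out 1 library, with adjusted p from 0.0568 to 0.142, and held only without shTRMT6 replicate 2. RAB21, an endosomal RAB of integrin traffic, overlapped between groups (log2 fold change -0.37, limma adjusted p = 0.228). RAB22A, which works in endosome recycling, had 136, 142 and 149 FPKM in shTRMT6, against 101.8, 100.1 and 48.1 FPKM in shControl. Its values did not overlap, and its log2 fold change of 0.84 just missed the threshold (SE 0.30, limma adjusted p = 0.0524).

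Of the 9 recycling RABs, 7 were tested, of which 2 fell (RAB11A and RAB14) and 1 rose (RAB4A). The shares over all genes tested were 9.04% lower and 26.5% higher. RAB11A, the RAB of the slow recycling endosome, had 246, 245 and 262 FPKM in shTRMT6, against 653, 523 and 529 FPKM in shControl. The 3 shTRMT6 values sat close together and below every shControl value. Its log2 fold change was -1.17 (SE 0.20, limma adjusted p = 0.00281). RAB11B, its close paralog, had 331, 375 and 303 FPKM in shTRMT6, against 288, 288 and 212 FPKM in shControl. Here all shTRMT6 values were higher, yet the log2 fold change of 0.36 was not called (SE 0.21, limma adjusted p = 0.208) and was -0.13 with median scaling.

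RAB14, which moves between the Golgi and endosomes, had 174, 156 and 169.6 FPKM in shTRMT6, against 285, 252 and 512 FPKM in shControl. The groups did not overlap, and the log2 fold change was -0.995 (SE 0.28, limma adjusted p = 0.0208). The RAB14 call was lost without shTRMT6 replicate 1 (limma adjusted p = 0.0602), shTRMT6 replicate 2 (0.0697) or shTRMT6 replicate 3 (0.0622). RAB4A, the RAB of fast recycling, had 135, 108 and 118 FPKM in shTRMT6, against 67.3, 97.6 and 55.0 FPKM in shControl. It did not overlap and had a log2 fold change of 0.74 (SE 0.26, limma adjusted p = 0.0475), but the call was lost in 5 of the 6 fits that leave out 1 library, with adjusted p from 0.0660 to 0.163, and with median scaling. RAB4B had 9.85, 7.80 and 4.76 FPKM in shTRMT6, against 6.77, 10.2 and 6.75 FPKM in shControl. The RAB4B values overlapped, and all of the RAB4B coding windows also occur in the readthrough gene RAB4B-EGLN2. RAB35, a recycling RAB of the plasma membrane, was lower in every shTRMT6 library without being called (log2 fold change -0.46, limma adjusted p = 0.106). RAB15, an endosomal RAB, was higher in every shTRMT6 library without being called (log2 fold change 1.15, limma adjusted p = 0.0547).

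**Figure D2:**
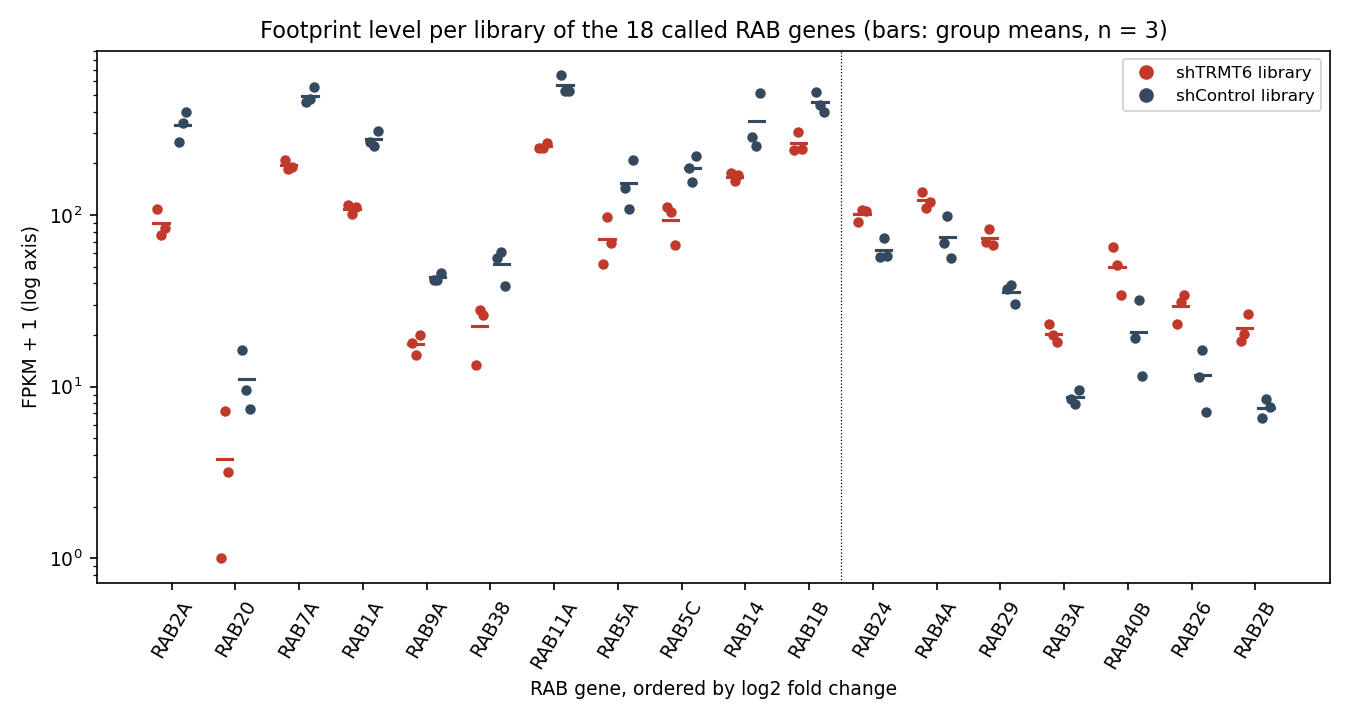
FPKM + 1 per library (y axis, log scale) for the 18 called RAB genes, ordered by log2 fold change, with shTRMT6 libraries left of shControl libraries for each gene and a bar at each mean. The 11 genes that fell and the 7 that rose show no overlap between groups; 1 shTRMT6 library of RAB20, listed at 0 FPKM, is plotted at 1.

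Of the 9 RABs of the late endosome, lysosome and autophagy, 7 were tested, of which 3 fell (RAB7A, RAB9A and RAB38) and 2 rose (RAB24 and RAB29). The shares over all genes tested were 9.04% lower and 26.5% higher. RAB7A, which directs late endosomes to fuse with lysosomes, had 208, 185 and 189 FPKM in shTRMT6, against 456, 474 and 554 FPKM in shControl. Every shTRMT6 value was far below the lowest shControl value. The log2 fold change was -1.34 (SE 0.19, limma adjusted p = 0.00171), and 0 of its 28-base windows occur in another gene. RAB9A, which serves the retrieval of mannose 6-phosphate receptors from late endosomes, had 17.0, 14.4 and 18.9 FPKM in shTRMT6, against 41.1, 40.9 and 44.8 FPKM in shControl. The values were tight and separate, with a log2 fold change of -1.29 (SE 0.24, limma adjusted p = 0.00447). Its paralog RAB9B lay near the detection limit, with 1.76, 1.99 and 1.28 FPKM in shTRMT6, against 1.48, 1.86 and 2.49 FPKM in shControl, and was not called. RAB12, which acts in the lysosomal degradation of transferrin receptor, overlapped between groups and was not called (log2 fold change -0.24).

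RAB38, a RAB of melanosomes and other lysosome-related organelles, had 12.4, 26.9 and 25.2 FPKM in shTRMT6, against 55.3, 59.8 and 37.6 FPKM in shControl. The groups did not overlap (log2 fold change -1.25, SE 0.34, limma adjusted p = 0.0188), and the call was lost without shTRMT6 replicate 1 (adjusted p = 0.0730) or shControl replicate 1 (0.0587). RAB29, which recruits the kinase LRRK2 to membranes, had 68.9, 82.3 and 66.1 FPKM in shTRMT6, against 36.2, 37.9 and 29.2 FPKM in shControl. All shTRMT6 values were higher, with a log2 fold change of 1.06 (SE 0.23, limma adjusted p = 0.00819). RAB24, linked to autophagy, had 90.0, 107 and 105 FPKM in shTRMT6, against 55.9, 72.2 and 56.8 FPKM in shControl. Its log2 fold change was 0.70 (SE 0.22, limma adjusted p = 0.0338), and the call was lost without shControl replicate 1 and without any 1 of shTRMT6 replicates 1 to 3, with adjusted p from 0.0780 to 0.113. All coding windows of RAB24 also occur in transcripts of MXD3, which overlaps it and had 12.1, 5.06 and 6.67 FPKM in shTRMT6, against 11.1, 8.50 and 7.27 FPKM in shControl.

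Of the 12 RABs of secretion and polarised exocytosis, 9 were tested, 2 rose (RAB3A and RAB26) and 0 fell. Over all genes tested, 26.5% rose and 9.04% fell. At an unadjusted limma p under 0.05, 4 of the 9 were lower, namely RAB3B, RAB8B, RAB10 and RAB27A. That count has no share of all genes at the same cutoff beside it. RAB3A, the RAB of synaptic and other regulated vesicles, had 22.1, 18.9 and 17.2 FPKM in shTRMT6, against 7.53, 6.97 and 8.59 FPKM in shControl. Every shTRMT6 value was higher, with a log2 fold change of 1.23 (SE 0.27, limma adjusted p = 0.0085). RAB3B had 26.5, 22.9 and 21.5 FPKM in shTRMT6, against 43.3, 29.3 and 39.7 FPKM in shControl. RAB3D had 44.3, 44.9 and 46.0 FPKM in shTRMT6, against 55.8, 66.3 and 51.3 FPKM in shControl. Both lay wholly below their controls without being called, with log2 fold changes of -0.63 for RAB3B (limma adjusted p = 0.0827) and -0.34 for RAB3D (0.251).

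RAB26, a RAB of secretory granules, had 22.1, 30.2 and 33.1 FPKM in shTRMT6, against 10.4, 15.3 and 6.16 FPKM in shControl. It did not overlap (log2 fold change 1.40, SE 0.35, limma adjusted p = 0.0135), and the call was lost without shTRMT6 replicate 2 (adjusted p = 0.0514) or shTRMT6 replicate 3 (0.0580). RAB8A, which carries cargo to the plasma membrane and cilium, had 294, 297 and 318 FPKM in shTRMT6, against 267, 319 and 215 FPKM in shControl. RAB8B had 51.7, 118 and 85.2 FPKM in shTRMT6, against 207, 151 and 111 FPKM in shControl. Both overlapped between groups and neither was called. RAB10, a RAB of GLUT4 vesicles, and RAB27A, a RAB of secretory lysosomes, were lower in every shTRMT6 library without being called (log2 fold changes -0.51 and -0.80, limma adjusted p = 0.104 and 0.0645). RAB13, a tight junction RAB, overlapped (log2 fold change -0.05), and all of its coding windows also occur in other genes.

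Of the 12 RABs of other or less defined function, 4 were tested and 1 rose, RAB40B, where 26.5% of all genes tested rose. The RAB40 proteins carry a SOCS box and serve as adapters of cullin ubiquitin ligases. RAB40B had 63.9, 50.3 and 33.1 FPKM in shTRMT6, against 18.2, 31.2 and 10.5 FPKM in shControl. The lowest shTRMT6 value lay just above the highest shControl value, and the log2 fold change was 1.33 (SE 0.40, limma adjusted p = 0.0272). The RAB40B call was lost without shTRMT6 replicate 1, shTRMT6 replicate 2, shControl replicate 1 or shControl replicate 3, with adjusted p from 0.0545 to 0.104. RAB40C had 9.63, 20.5 and 29.4 FPKM in shTRMT6, against 10.2, 16.4 and 8.45 FPKM in shControl, and overlapped. RAB23, an inhibitor of Hedgehog signalling in mice, was lower in every shTRMT6 library without being called (log2 fold change -0.65, limma adjusted p = 0.104), and RAB28, a ciliary RAB, overlapped (0.34). RAB6C, a copy of RAB6A with 91.4% of its windows in other genes, was listed at 0.53, 1.04 and 3.57 FPKM in shTRMT6 and at 0 in every shControl library, on an estimated 7 reads at most. Too few libraries reached 1 FPKM for RAB6C to be tested with the filter used, and it was called higher in a limma fit with no filter beyond a value above 0 in 1 library.

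Several paralogs held a share of their group that did not overlap between shTRMT6 and shControl. In the RAB2 group, RAB2B made up 14.0%, 20.3% and 23.6% of the summed RAB2 FPKM in shTRMT6, against 2.04%, 2.15% and 1.63% in shControl. RAB11B made up 57.4%, 60.5% and 53.6% of the RAB11 sum in shTRMT6, against 30.6%, 35.5% and 28.6% in shControl. The larger member of the RAB11 pair was thus RAB11B in each shTRMT6 library and RAB11A in each shControl library. RAB5B held 34.4% ± 2.37 of the RAB5 sum in shTRMT6 and 15.5% ± 4.72 in shControl, and RAB3A held 22.0% ± 1.78 of the RAB3 sum in shTRMT6 and 7.49% ± 0.989 in shControl (SD, n = 3 each). RAB8A held 78.5% ± 6.79 of the RAB8 sum in shTRMT6 and 63.3% ± 6.16 in shControl, and RAB1A held 29.5% ± 4.06 of the RAB1 sum in shTRMT6 and 38.0% ± 5.04 in shControl. Each of these 6 shares was without overlap, at an exact permutation p of 0.1, the smallest possible. The 6 were selected from the shares of all the paralog groups. Of the other shares, some also did not overlap, such as those of RAB4A and RAB9A (exact permutation p = 0.1 each). Others overlapped, such as those of RAB5A (exact permutation p = 0.3), RAB3D (0.5), RAB40B (0.5) and RAB40C (0.5). The p-values were not adjusted over the shares, and no rate for other gene groups is given. The shares therefore cannot show an effect particular to paralogs. A share within a library does not change when the library is rescaled.

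**Figure D3:**
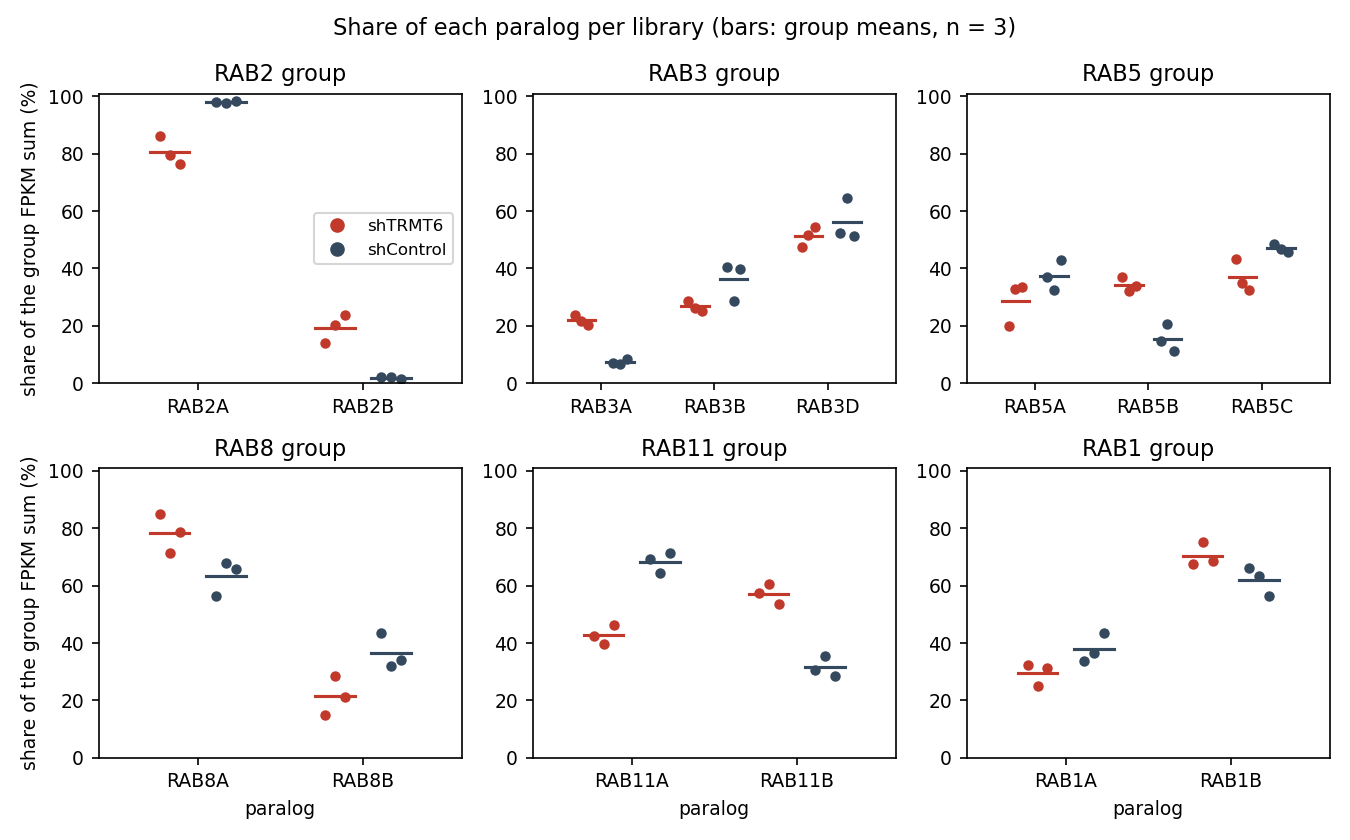
Percent of the summed FPKM of a paralog group held by each tested member (y axis), per library, for the RAB1, RAB2, RAB3, RAB5, RAB8 and RAB11 groups, with shTRMT6 left of shControl for each member and a bar at each mean. RAB11B lies at 53.6% to 60.5% of the RAB11 sum in shTRMT6 and at 28.6% to 35.5% in shControl.

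Across the 13 pairs of tested paralogs, the log ratio between the members did not overlap between shTRMT6 and shControl in 10 (exact permutation p = 0.1 each, 0.13 after Benjamini-Hochberg adjustment over the 13), so no pair passed 0.05. The pairs whose ratio overlapped were RAB3B with RAB3D, RAB5A with RAB5C, and RAB40B with RAB40C. Of all single genes tested, 51.4% did not overlap in level. That is another measure than a ratio of 2 genes, and no rate for other gene pairs is given. The count of pairs therefore cannot show an effect particular to paralogs. The difference in log2 fold change was -3.42 for RAB2A less RAB2B, 1.86 for RAB3A less RAB3B, -1.59 for RAB5A less RAB5B and -1.53 for RAB11A less RAB11B.

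As sums, 6 of the 10 paralog groups with more than 1 member above 0 were lower in every shTRMT6 library, 2 were higher and 2 overlapped. Of all single genes tested, 14.3% were lower in every shTRMT6 library and 37.0% higher. That is another measure than a sum, and no rate for sums of other genes is given. Some sums were close to the level of 1 member. In shControl RAB2A made up 98.1% of the RAB2 sum, RAB9A 95.6% of the RAB9 sum and RAB4A 90.15% of the RAB4 sum. The RAB2 sum was 109.8 ± 15.2 FPKM in shTRMT6 and 342 ± 65.8 FPKM in shControl, and the RAB9 sum 18.4 ± 1.93 FPKM in shTRMT6 and 44.2 ± 2.68 FPKM in shControl (SD, n = 3 each). The RAB1, RAB3, RAB5 and RAB11 sums were also lower, with log2 ratios of -0.98, -0.23, -0.67 and -0.49. The RAB4 sum was 128 ± 15.1 FPKM in shTRMT6 and 81.2 ± 23.8 FPKM in shControl, and the RAB40 sum 69.0 ± 5.83 FPKM in shTRMT6 and 31.6 ± 14.6 FPKM in shControl (SD, n = 3 each). The RAB6 and RAB8 sums overlapped. The exact permutation p was 0.1 for each of the 8 groups without overlap, and 0.125 after Benjamini-Hochberg adjustment over the 10 groups. With median scaling, 0 groups were higher in every shTRMT6 library.

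GC3, the share of codons that end in G or C, was at the median higher in the RAB genes that rose than in those that fell. The 7 genes that rose had a median GC3 of 72.4%, with a range of 42.7% to 85.3%, and the 11 that fell a median of 41.5%, with a range of 30.2% to 80.3%. The 25 genes that were not called had a median of 57.7%. In 10 of the 13 paralog pairs, which reuse the RAB3 and RAB5 members, the one with the higher GC3 had the higher log2 fold change. The other 3 pairs were RAB4A (42.7%) with RAB4B (74.6%), RAB5B (57.7%) with RAB5C (65.7%), and RAB40B (85.3%) with RAB40C (92.2%). For RAB11 the GC3 was 35.6% in RAB11A and 88.1% in RAB11B, for RAB5 it was 30.2% in RAB5A and 57.7% in RAB5B, and for RAB2 it was 35.8% in RAB2A and 54.2% in RAB2B. RAB1A and RAB1B were at 41.5% and 76.1%, and both fell. Across the 43 RAB genes, which share the 6 libraries and differ in length and level, GC3 and log2 fold change had a Pearson r of 0.43 and a Spearman rank correlation of 0.457, given as a description. Over the 11501 tested genes with a coding sequence the same values were 0.066 and 0.0784. Against log2 coding length the Pearson r was 0.319 over the RAB genes and 0.32 over all these genes. Against log2 mean level it was -0.259 over the RAB genes and -0.297 over all. The mean level had a median of 34.5 FPKM in the RAB genes that rose and 191.5 FPKM in those that fell. With the trend on GC3 also removed, 11 RAB genes fell (25.6%) and 6 rose (14.0%), against 14.1% and 14.0% of all genes. Relative to the fit without any trend removed, RAB3A (log2 fold change 0.82), RAB24 (0.60), RAB40B (0.97), RAB5A (-0.94) and RAB14 (-0.60) lost their calls there, with limma adjusted p from 0.0555 to 0.133. RAB5A and RAB14 had already lost theirs with the level and length trends alone. RAB3B and RAB27A were gained as lower, and RAB11B and RAB22A as higher.

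**Figure D4:**
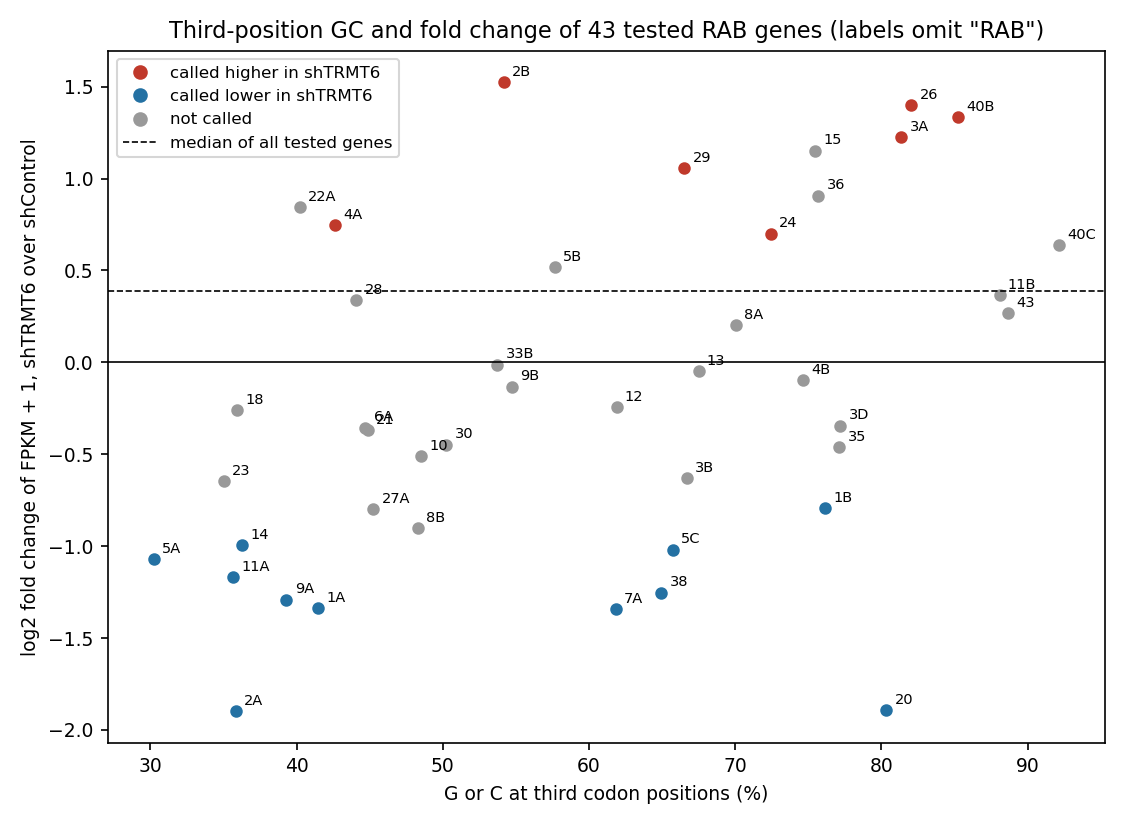
Log2 fold change (shTRMT6 over shControl, y axis) against GC3 in percent (x axis) for the 43 tested RAB genes, coloured by call and named without the letters RAB. The dashed line is the median of all tested genes. RAB11A at 35.6% and RAB11B at 88.1% lie at -1.17 and 0.36.

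Except for the delivery genes, the machinery that works on RABs was called higher in shares near or somewhat above that of all genes tested. That share was 26.5%, and 9.04% of all genes tested were called lower. Of 45 tested exchange factor genes, 14 rose and 2 fell, and their log2 fold changes had a median of 0.45. RAB3GAP1 and RAB3GAP2, the subunits of the RAB18 exchange factor, had log2 fold changes of 1.99 and 2.06 (limma adjusted p = 0.00173 and 0.00181), and HPS1, part of the exchange factor of RAB32 and RAB38, had 1.55 (0.00251). The 2 that fell were TRAPPC4 (-1.17, adjusted p = 0.00358) and TRAPPC3 (-0.67, 0.0471), core subunits of the TRAPP complexes that activate RAB1. Of 35 TBC domain genes 11 rose and 0 fell, with a median of 0.67, and by limma 0 were lower at an unadjusted p under 0.05 either. Of 7 delivery and prenylation genes 0 were called, with 1 lower and 0 higher at an unadjusted limma p under 0.05, and the median was 0.02. The unadjusted counts are given without the share of all genes at that cutoff.

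Of 40 RAB effectors 14 rose and 0 fell, and of 32 tethering genes 9 rose and 0 fell, with medians of 0.60 and 0.46. Over all genes tested, 26.5% rose and 9.04% fell, with a median of 0.39. By limma 0 effectors and 0 tethering genes were lower at an unadjusted p under 0.05, again without the share of all genes at that cutoff. The effectors with the smallest p were PLEKHM1, which links RAB7 to the HOPS tether (1.62, limma adjusted p = 0.00221), ERC1 (1.89, 0.00224) and RBSN, a RAB4 and RAB5 effector (2.42, 0.00272). Of 39 SNARE genes 13 rose and 2 fell, with a median of 0.58, led by the endosomal syntaxin STX12 (1.68, limma adjusted p = 0.00142). Most called genes of the whole table, 3069 of 4115, were higher too. With median scaling 8 exchange factors rose and 4 fell, 4 TBC genes rose and 0 fell, 7 effectors rose and 1 fell, 2 tethering genes rose and 1 fell, 6 SNARE genes rose and 7 fell, and 0 delivery genes rose and 1 fell, against 13.2% of all genes higher and 19.7% lower.

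Among the ARF, ARL and SAR GTPases, which also act in membrane traffic, more genes fell than rose. Of 22 tested genes 7 fell and 4 rose (median log2 fold change -0.31), against 9.04% lower and 26.5% higher over all genes tested. ARL1, a Golgi GTPase, had 228, 202 and 240.4 FPKM in shTRMT6, against 769, 711 and 734 FPKM in shControl (log2 fold change -1.72, limma adjusted p = 0.000751). ARF1 and ARF3, which recruit coats to the Golgi, had log2 fold changes of -1.15 and -1.48, both called. ARL10 had 12.3, 15.2 and 19.3 FPKM in shTRMT6 and was listed at 0 in every shControl library. Of 6 RAB-like and RAN genes 2 rose and 1 fell, with a median of 0.23. RAN, the GTPase of nuclear transport, had a log2 fold change of -1.56 and fell, while RABL2B and IFT27, ciliary GTPases, rose with 2.71 and 2.51. With median scaling 11 ARF, ARL and SAR genes were lower and 2 were higher, against 19.7% and 13.2% of all genes.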

How the data were processed

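Ribosome footprint libraries of RKO cells, 3 shTRMT6 and 3 shControl, were compared. The deposited values are FPKM per gene made by the authors, per the file headers. Per the submitters' processing notes, fastp, STAR and RSEM were used. Tool versions, genome build, annotation and the division of reads among similar genes were not given in the sources used here. Columns named SH were read as shTRMT6 and columns named NC as shControl, which no label spells out, and 0 value columns were left unassigned. FPKM is relative to the library, and no RNA-seq of these cells was used.

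Symbols were matched for 19705 of 20289 identifiers, and 20171 were found in GENCODE 29 (GRCh38), which gave positions, coding length, GC3 and sequence and may differ from the authors' annotation. Genes that reached 1 FPKM in 3 or more libraries were fitted as log2(FPKM + 1) in limma 3.58.1 (R 4.3.3, eBayes with intensity trend, group as the only term). P-values were adjusted by Benjamini-Hochberg over all 11566 genes, with a threshold of 0.05. Fold changes understate the change of low genes. Sums and shares were compared by two-sided exact permutation tests, whose smallest p is 0.1. Windows of 28 bases of each coding sequence were looked up in all other GENCODE transcripts. Reads per library were estimated from the steps in low FPKM values, of which 60.0% to 70.4% were within 0.1 of a whole number, so no count model was fitted. The procedure was tested on simulated data in which few genes changed and the rest had no shift between groups. That setting does not cover the shift in the median of all genes seen here, so it is no support for the calls.

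The members, compartments and gene lists were chosen with earlier results of these data known. Compartments were assigned from textbook knowledge. Every called RAB gene is named. Values per library are given for the called genes of largest fold change, the 5 of highest mean FPKM and the paralog groups with unequal calls, and for further RAB genes chosen after their values were seen. From each other list up to 3 called genes per direction with the smallest p were taken. Proteins were not used here. Alternatives were 2 scalings, other filters and pseudocounts, trend removal, a replicate block and leaving out each library. The result of 1 further gene list is not reported here.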

Additional observations from a re-analysis of the deposited data

How the results depend on the processing

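Against 7 RAB genes higher and 11 lower, median scaling gave 1 and 20, quantile normalization 3 and 18, and an adjusted p under 0.01 gave 3 and 5. Leaving out each library gave 3 to 9 higher and 6 to 11 lower: 4 and 6 without shTRMT6 replicate 1, 3 and 11 without shTRMT6 replicate 2, 4 and 6 without shTRMT6 replicate 3, and 4 and 7 without shControl replicate 1. The median log2 fold change of the RAB genes, -0.26, was -0.76 with median scaling and -0.59 with quantile normalization, and -0.33 to -0.19 with a library left out. The log2 ratio of the summed FPKM, -0.47, was -0.96 with median scaling and -0.39 as a share of the library sum. It was -0.49 to -0.45 with a library left out. Of the paralog groups, 2 were higher in every shTRMT6 library, and 0 with median scaling. The cause of these shifts was not tested.

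The calls of RAB1A, RAB2A, RAB7A, RAB9A, RAB11A (lower) and RAB2B (higher) held in all 15 alternatives. For the lower calls median scaling is no support, since it moved the median of all genes down. Quantile normalization also moved that median down, from 0.39 to -0.04. Outside the scalings, trend removal and omitted libraries, RAB20, RAB40B and RAB4A lost their calls with no filter on low values (limma adjusted p = 0.0823, 0.0515 and 0.0581), and RAB6C was gained as higher. RAB20 and RAB4A also did with a pseudocount of 0.1 (0.0927 and 0.0512), and RAB20, RAB24 and RAB4A without the intensity trend (0.0525, 0.0508 and 0.0702). Same-numbered libraries did not deviate together (r 0.012, 0.013 and 0.102), and with the replicate number as a block 7 RAB genes were higher and 11 lower, RAB22A being gained and RAB4A lost (limma adjusted p = 0.0508). Low genes such as RAB9B and RAB20 rest on few reads, and a difference there may not be detectable at this depth.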
